A study of Mus musculus with 6 samples.

Results

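The unconventional myosins of hair cells are described here in RNA from outer hair cells sorted at E18.5 from the cochlea of mouse embryos. They are the 10 genes Myo6, Myo7a, Myo3a, Myo3b, Myo15, Myo1c, Myo1h, Myo10, Myo5a and Myo19, taken by gene symbol from 23337 symbols in the count files. The rule used symbols and no values, but the list was drawn up with earlier results of these data known. All 10 were listed, and all 10 passed the filter on low counts that left 11714 genes for testing. The libraries fall into 3 from Insm1-KO and 3 from Insm1-Het cochleae. Insm1 encodes a zinc-finger transcription factor of nascent outer hair cells, and the cells of both genotypes, Het controls included, were sorted by the fluorescence of an Insm1-GFP-Cre allele. The labels name neither the deleted part of Insm1 nor the number of animals or litters behind a library, so the p-values reflect the spread among these samples alone, and that spread may be technical. The series addresses whether outer hair cells turn into inner hair cells without INSM1.

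Myosins are motors that move along actin filaments by hydrolysing ATP, and the unconventional classes carry cargo, tether membrane or cross-link actin instead of forming muscle-type filaments. The sensory hair bundle of a hair cell consists of stereocilia, protrusions packed with parallel actin filaments, and the bundle's length, tip proteins and anchorage depend on several of these motors. Loss of Myo6, Myo7a or Myo15 causes deafness in the mouse mutants Snell's waltzer, shaker-1 and shaker-2.

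The 10 genes share the ATP-binding P-loop of the motor domain. Its codons are shown because the P-loop is the signature of the motor domain, and because they show how far members differ at the base level at which reads were assigned. The letters come from GENCODE release M21 transcripts on GRCm38, 5′ to 3′ on the coding strand, with the 24 P-loop bases in capitals, 12 flanking bases on each side, and the genome position of the capitals before each.
Myo6, chr9:80242224-80242247, plus strand: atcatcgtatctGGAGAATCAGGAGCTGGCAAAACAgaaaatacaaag
Myo7a, chr7:98097710-98097733, minus strand: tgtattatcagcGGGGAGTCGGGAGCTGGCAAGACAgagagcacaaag
Myo3a, chr2:22333643-22333666, plus strand: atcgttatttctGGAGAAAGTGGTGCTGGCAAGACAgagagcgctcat
Myo3b, chr2:70237832-70237855, plus strand: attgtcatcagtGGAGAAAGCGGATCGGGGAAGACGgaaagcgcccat
Myo15, chr11:60483717-60483740, plus strand: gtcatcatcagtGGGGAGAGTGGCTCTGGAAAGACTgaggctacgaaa
Myo1c, chr11:75658422-75658445, plus strand: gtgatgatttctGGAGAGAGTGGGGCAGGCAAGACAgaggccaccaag
Myo1h, chr5:114319742-114319765, plus strand: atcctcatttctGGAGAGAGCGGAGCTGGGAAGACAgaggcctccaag
Myo10, chr15:25722171-25722194, plus strand: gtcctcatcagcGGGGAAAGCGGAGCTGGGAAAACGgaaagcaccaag
Myo5a, chr9:75130003-75130026, plus strand: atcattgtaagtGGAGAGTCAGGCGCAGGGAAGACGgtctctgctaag
Myo19, chr11:84888147-84892078, plus strand: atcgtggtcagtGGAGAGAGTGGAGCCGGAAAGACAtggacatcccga

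The P-loop lies in a single coding exon in all members but Myo19, where an intron splits it. It begins at codon 158 in Myo7a, 151 in Myo6, 121 in Myo1h, 140 in Myo1c, 132 in Myo19, 157 in Myo10 and 163 in Myo5a, near the start of the protein. It begins at codon 439 in Myo3a and 452 in Myo3b, whose motor follows an N-terminal kinase domain, and at codon 1299 in Myo15, which has a long N-terminal extension. Over the 45 pairs of members, between 14 and 21 of the 24 bases were equal, and 0 pairs were identical. The longest stretch that any pair of member transcripts shared was 35 bases, between Myo1c and Myo1h, followed by 25 bases between Myo3a and Myo3b. None of these transcripts, 1 per member with the longest coding sequence, therefore shared a full window of 100 bases, the read length, with another. Of the windows of that length in each transcript, 2.08% of Myo3b also occurred in the gene model Gm17867 and 4.46% of Myo19 in Znhit3. The chosen transcripts of the other 8 members had 0 such windows in any other gene. Exons outside the chosen transcripts were not covered: merged exons of Myo1h overlap those of Kctd10 over 25.8% of their length.

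The deposited counts summed to 9259736, 7705177 and 9748629 in the KO libraries and to 11738214, 10721902 and 12427039 in the Het libraries. Values are given in CPM, the usual library-scaled counts, here with the library total over tested genes times a TMM factor as the divisor, as mean ± SD with n = 3 per genotype. Insm1 itself, counted over the whole gene, was at 78.7, 60.3 and 18.7 CPM in the KO libraries, against 109, 116 and 69.2 CPM in the Het libraries, so the genotypes overlapped; with the deleted part not named, this gene count is no check of the genotype. All 10 hair cell markers, all 5 outer hair cell markers and all 11 supporting cell markers were counted in at least 1 library. The summed level of the hair cell markers was 4439 to 5497 CPM in KO and 3885 to 4319 CPM in Het libraries, that of the outer hair cell markers 264 to 290 CPM in KO and 258 to 321 CPM in Het libraries, that of the inner hair cell markers 92.0 to 431 CPM in KO and 0.0937 to 7.75 CPM in Het libraries, and that of the supporting cell markers 1773 to 2268 CPM in KO and 1499 to 1742 CPM in Het libraries. The outer hair cell sum includes Insm1, the mutated gene, whose levels are given above and were lower on average in KO. Ocm, also in that list, had 15, 22 and 33 counts in the KO libraries and 0 in every Het library. Brip1 made up most of the inner hair cell sum, with 76.8, 88.0 and 422 CPM in the KO libraries and 0.489, 0 and 5.93 CPM in the Het libraries. Of the other inner hair cell markers, Tbx2 also separated the genotypes, with KO above, whereas Slc17a8 and Fgf8 overlapped and were too low to be tested. The sums for hair cell, inner hair cell and supporting cell markers did not overlap between genotypes in this scaling. The lists were chosen with earlier results of these data known. Brip1 had the smallest adjusted p of all tested genes, 0.415 by edgeR with Benjamini-Hochberg adjustment. The separation of the inner hair cell sum is therefore no independent evidence. Under library size scaling, added after seeing the data, the hair cell sum overlapped, at 4459 to 5078 CPM in KO and 3970.0 to 4531 CPM in Het libraries. Single markers went both ways in TMM-scaled CPM. Of the hair cell list, Atoh1 and Tmc1 separated with KO above, and Gfi1 and Lhx3 with KO below. Of the supporting cell list, S100a1 separated with KO above and Gjb2 with KO below. Across all tested genes, 5.08% separated with KO above and 6.1% with KO below. The part of these markers in the results below was not tested. In bulk RNA, fewer cells of a type and less RNA per cell cannot be told apart.

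The 10 myosins in sum made up 0.678%, 0.674% and 0.684% of all counts in the KO libraries, against 0.715%, 0.709% and 0.706% in the Het libraries. The exact binomial 95% intervals, which cover counting error only, ran from 0.668% to 0.689% over the KO libraries and from 0.701% to 0.720% over the Het libraries. The share was 0.679 ± 0.00529% in KO and 0.710 ± 0.00466% in Het libraries (SD, n = 3 each), and the genotypes did not overlap. The separation depended on the scaling: summed in TMM-scaled CPM, the members were at 6700, 6772 and 7424 CPM in KO and at 6837, 7117 and 6936 CPM in Het libraries, or 6965 ± 399 CPM in KO and 6963 ± 142 CPM in Het libraries, where the genotypes overlapped. The TMM factor of KO replicate 3, 0.924, was the lowest of the 6. Myo6 alone supplied 71.7 ± 1.77% of the members' counts in KO and 72.9 ± 2.0% in Het libraries, and Myo7a supplied 14.0 ± 2.08% in KO and 13.3 ± 1.15% in Het libraries.

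Levels of different genes are compared per kilobase of merged exons, since longer transcripts collect more reads. On that scale the members spanned from 418 CPM per kilobase for Myo6 to 1.31 for Myo1c (medians over 6 libraries). Myo6 ranked 25 among the 11578 tested genes with a length, and 99.8% of them lay below it. Myo7a followed at 105, Myo3a at 42.1, Myo3b at 29.7 and Myo15 at 20.8 CPM per kilobase. Myo6, Myo7a and Myo3a held ranks 1, 2 and 3 among the members in all 6 libraries, and the ranges over libraries did not overlap between them. Myo3a also lay above Myo3b in every library, while Myo3b and Myo15 exchanged places and each led in 3 libraries.

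The other 5 members lay well below these. Their medians were 5.96 CPM per kilobase for Myo10, 3.36 for Myo1h, 3.22 for Myo5a, 1.41 for Myo19 and 1.31 for Myo1c, and each of these neighbours overlapped the next in range. The lowest value of Myo15, 15.9 CPM per kilobase, still exceeded the highest of Myo10, 11.6. Only 17.4% of the tested genes with a length lay below Myo1c. Scaled by the longest coding sequence in place of merged exons, the order was the same but for Myo5a at 8.57, which came before Myo1h at 6.39 CPM per kilobase.

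**Figure D1:**
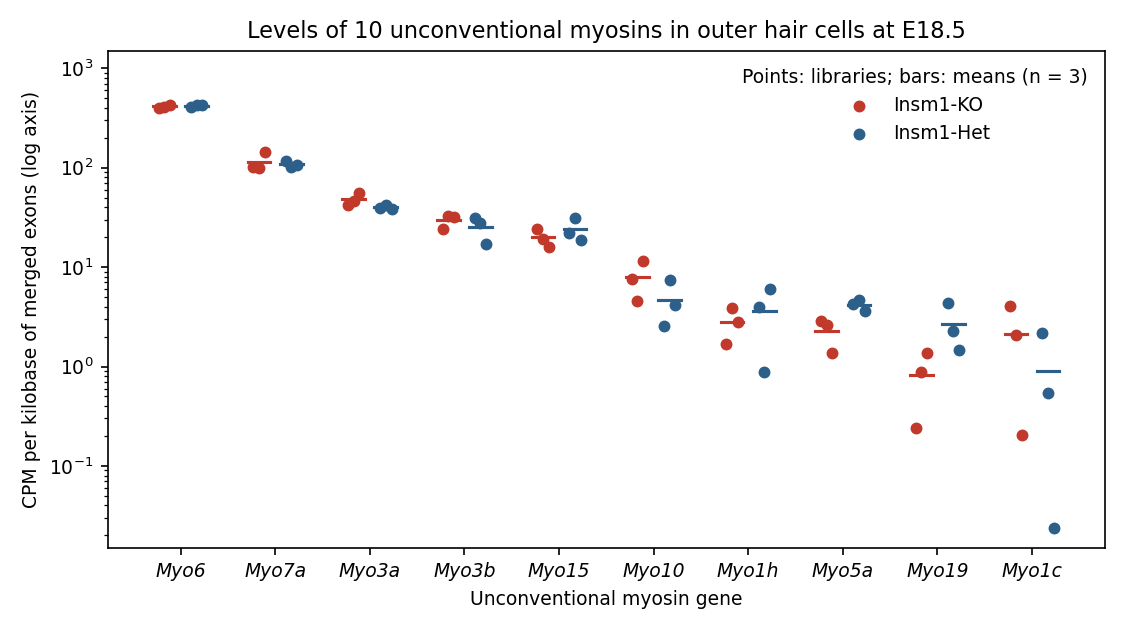
Level of each member in every library, in CPM per kilobase of merged exons on a log axis, with KO libraries left of Het libraries and a bar at each mean (n = 3). Myo6 sits between 401 and 431, Myo7a between 99.7 and 142, and the 5 members at the right lie between 0.0240 and 11.6 with wide scatter.

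Across all 11714 tested genes, the quasi-likelihood F-test of edgeR, adjusted by Benjamini-Hochberg, called 0 genes at an adjusted p under 0.05 (0% of genes tested), and so 0 of the 10 members. DESeq2 called 26 genes and limma-voom 0, with 0 members in either. At an unadjusted p under 0.05 it called 0 of the 10 members, beside 626 (5.34%) of all tested genes. Of the members' log2 fold changes, KO over Het, 5 were above 0 and 5 below, with a median of 0.03 beside 0.02 for all tested genes. The genotypes did not overlap in CPM for 3 members, Myo3a with all KO libraries above the Het ones, and Myo5a and Myo19 with all KO libraries below. Such a separation was found in 11.2% of tested genes, 5.08% with KO above and 6.1% with KO below. The same 3 members were separated under median-ratio and upper quartile scaling, and under library size scaling Myo6 was too, with KO below. Under library size scaling, 4.32% of tested genes separated with KO above and 6.91% with KO below.

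**Figure D2:**
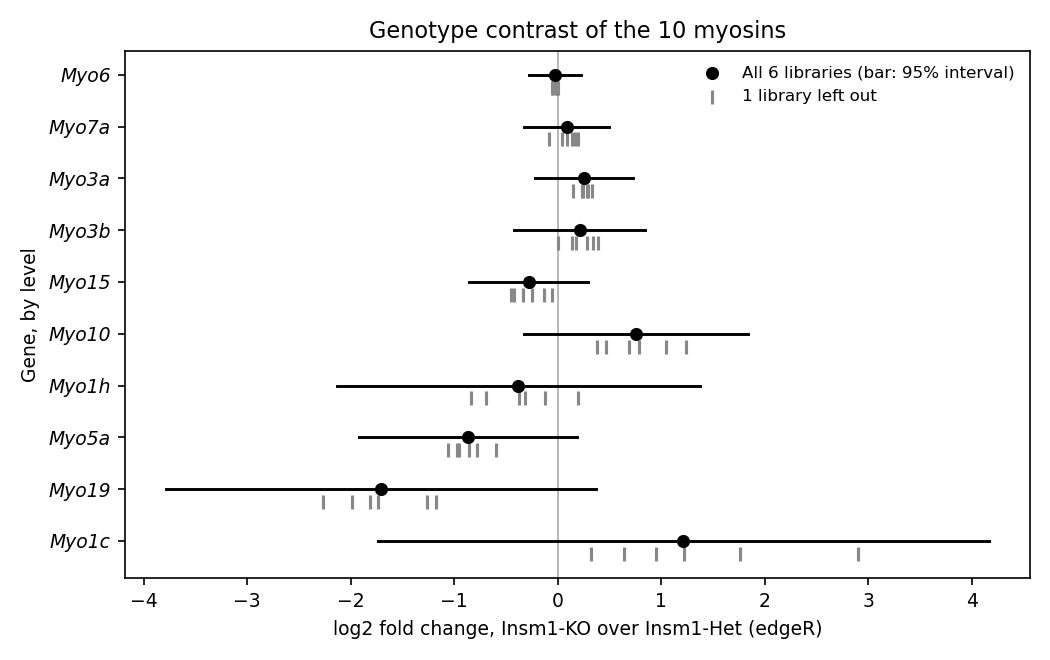
Log2 fold change of each member, Insm1-KO over Insm1-Het, from edgeR with its 95% interval as a bar, and grey ticks for the 6 fits with 1 library left out. Every interval includes 0, with the narrowest for Myo6 (-0.27 to 0.22) at the top and the widest for Myo1c (-1.74 to 4.16) at the bottom.

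Myo6 moves towards the minus end of actin and is thought to anchor the membrane around the base of the stereocilia and the cuticular plate. The gene (GRCm38 chromosome 9, plus strand, 80165031 to 80311729) was at 4849, 4946 and 5174 CPM in the KO libraries, against 4869, 5152 and 5210 CPM in the Het libraries. These ranges lay over each other almost entirely. On the log2 scale KO differed from Het by -0.02 (SE 0.11, 95% interval -0.27 to 0.22). Its log2 CPM differed by 0.10 between the lowest and the highest library, where the median range was 0.62 over the 268 tested genes with a mean of at least 500 CPM.

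Myo7a, the shaker-1 and Usher syndrome motor that is placed at the upper end of the tip link, is encoded on the minus strand of chromosome 7 (98051060 to 98119524). Its level was 876, 854 and 1219 CPM in the KO libraries and 991, 868 and 915 CPM in the Het libraries. KO replicate 3 was the highest of all and KO replicate 2 the lowest. The log2 fold change was 0.09 (SE 0.19, 95% interval -0.32 to 0.50), and -0.09 without KO replicate 3. Per kilobase of merged exons, Myo6 exceeded Myo7a by 3.92, 4.11 and 3.01 times in the KO libraries and by 3.49, 4.21 and 4.04 times in the Het libraries. The size of this ratio depends on the length used. Per kilobase of the longest coding sequence the gap was wider, with medians of 1301 CPM for Myo6 and 135 CPM for Myo7a.

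Myo3a and Myo3b are class III myosins, motors with a kinase domain that carry espin proteins to the tips of stereocilia. Myo3a (chromosome 2, plus strand, 22227503 to 22618252) was at 336, 365 and 439 CPM in the KO libraries, against 315, 333 and 308 CPM in the Het libraries. All KO values lay above all Het values, although the lowest KO library exceeded the highest Het library only by 336 against 333 CPM. The means were 380.1 ± 53.4 CPM in KO and 319 ± 13.2 CPM in Het libraries (SD, n = 3). The log2 fold change of 0.25 (SE 0.22, 95% interval -0.22 to 0.72) did not pass (adjusted p = 0.979 by edgeR with Benjamini-Hochberg adjustment), and it was 0.15 without KO replicate 3.

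Myo3b (chromosome 2, plus strand, 70039126 to 70429198) was at 171, 232 and 222 CPM in the KO libraries and at 221, 197 and 121 CPM in the Het libraries. KO replicate 1 lay below Het replicates 1 and 2, and Het replicate 3 was the lowest of all. KO over Het gave a log2 fold change of 0.22 (SE 0.29, 95% interval -0.42 to 0.85), and it was 0.00 without Het replicate 3. Per kilobase, Myo3a exceeded Myo3b by 1.75, 1.39 and 1.75 times in the KO libraries and by 1.26, 1.5 and 2.26 times in the Het libraries, so that this ratio overlapped between genotypes.

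Myo15, the shaker-2 motor that brings whirlin and Eps8 to stereocilia tips (chromosome 11, plus strand, 60469339 to 60528369), was at 310.4, 246 and 203 CPM in the KO libraries, against 284, 397 and 241 CPM in the Het libraries. Het replicate 2 stood highest, and the genotypes overlapped. This gave a log2 fold change of -0.28 (SE 0.27, 95% interval -0.85 to 0.29). Leaving out 1 library moved it between -0.45 without KO replicate 1 and -0.05 without Het replicate 2.

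Myo5a moves vesicles and organelles towards the plus end of actin, and is known from pigment cells and neurons. The gene (chromosome 9, plus strand, 75071015 to 75223688) was at 42.3, 39.0 and 20.1 CPM in the KO libraries, against 62.7, 69.3 and 53.1 CPM in the Het libraries. KO replicate 3 was the lowest and no KO library reached a Het library. The means were 33.8 ± 11.9 CPM in KO and 61.7 ± 8.14 CPM in Het libraries (SD, n = 3). Their log2 fold change was -0.87 (SE 0.49, 95% interval -1.92 to 0.19), and the difference did not pass (unadjusted p = 0.0986, adjusted p = 0.938 by edgeR with Benjamini-Hochberg adjustment).

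Without KO replicate 3 the log2 fold change of Myo5a was -0.59, and without KO replicate 1 it was -1.06. Of 6 pigment cell markers, Dct, Tyr, Tyrp1 and Mlana had 0 counts in all libraries, and the summed level of the list was at most 0.130 CPM in KO and 0.562 to 8.55 CPM in Het libraries. The 7 neuron markers, all counted in at least 1 library, summed to 850.0 to 1514 CPM in KO and 905 to 1075 CPM in Het libraries, which overlapped. Nefm and Nefl made up most of that sum, and Elavl4 alone among the 7 separated, with 2.24, 1.30 and 1.56 CPM in the KO libraries against 16.2, 14.0 and 5.14 CPM in the Het libraries. The pigment cell sum was thus higher in every Het library, but it came mostly from Mitf. That gene had 101, 5 and 19 counts in the Het libraries and 0, 0 and 1 in the KO libraries. The counts behind the sum were few, with 4 markers at 0, and whether Het libraries held more pigment cells was not tested. The part of the markers of either list in the level of Myo5a was not tested.

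Myo19 is the myosin of the mitochondrial outer membrane. The gene (chromosome 11, plus strand, 84880148 to 84911226) had 16, 48 and 87 counts in the KO libraries against 378, 174 and 132 counts in the Het libraries. In CPM this was 1.71, 6.26 and 9.68 in KO and 30.8, 16.3 and 10.4 in Het libraries. KO replicate 1 was far below the rest, Het replicate 1 far above, and the nearest values of the genotypes, 9.68 in KO and 10.4 in Het, lay close together. The means were 5.88 ± 4.0 CPM in KO and 19.2 ± 10.5 CPM in Het libraries (SD, n = 3).

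The log2 fold change of Myo19 was -1.70 (SE 0.97, 95% interval -3.78 to 0.37), the lowest among the members, and did not pass (unadjusted p = 0.1, adjusted p = 0.938 by edgeR with Benjamini-Hochberg adjustment). It ran from -2.26 without KO replicate 3 to -1.18 without Het replicate 1. The exons of Myo19 overlap those of Znhit3 on the opposite strand over 3.89% of their length and those of Pigw over 1.49%, and without a stated strand setting such reads cannot be told apart. Pigw was at 15.1, 6.0 and 0.111 CPM in the KO libraries and at 14.3, 15.9 and 41.5 CPM in the Het libraries. Znhit3 was at 4.27, 1.43 and 4.67 CPM in the KO libraries and at 5.05, 16.3 and 4.03 CPM in the Het libraries. The log2 fold change was -1.76 for Pigw and -1.28 for Znhit3, both below 0 as for Myo19, and neither passed. Pigw was highest in Het replicate 3, Znhit3 in Het replicate 2 and Myo19 in Het replicate 1. The part of shared reads in the level of Myo19 was not tested.

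Myo10 is a motor of filopodia with a MyTH4-FERM tail, a tail type it shares with Myo7a and Myo15. For the gene (chromosome 15, plus strand, 25622525 to 25813673) RefSeq gives 2 start sites, and mouse tissues also make a form without the motor head, which gene counts do not separate from the full-length one. It was at 76.3, 46.3 and 117 CPM in the KO libraries, against 26.1, 74.4 and 41.7 CPM in the Het libraries. Het replicate 2 lay among the KO values, so the genotypes overlapped. Myo10 had a log2 fold change of 0.76 (SE 0.50, 95% interval -0.33 to 1.84), which became 0.38 when KO replicate 3 was left out and 1.24 when Het replicate 2 was.

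Myo1c, a class I myosin with a short tail that binds membrane, has been studied as an adaptation motor of mouse vestibular hair cells. The gene (chromosome 11, plus strand, 75650504 to 75673910) had 250, 105 and 12 counts in the KO libraries against 175, 38 and 2 counts in the Het libraries. In CPM this was 26.7, 13.7 and 1.34 in KO and 14.3, 3.56 and 0.158 in Het libraries. Libraries of the same genotype differed far beyond counting error, whose exact Poisson 95% intervals ran from 220.0 to 283 counts in KO replicate 1 and from 6.20 to 21.0 counts in KO replicate 3. The log2 fold change was 1.21 (SE 1.37, 95% interval -1.74 to 4.16), and the fits with 1 library left out gave 0.32 without KO replicate 1 to 2.90 without Het replicate 1.

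The log2 CPM of Myo1c spanned 6.25 between its lowest and highest library, the widest range of the 10 members. The genes whose pattern over the 6 libraries lay nearest to it, by the root mean square difference of centred log2 CPM among 10327 genes with a mean of at least 5 CPM, were Rnf215 (0.606), Eif2c4 (0.759) and Fmn2 (0.767). Each of them was lowest in Het replicate 3 as well, with 0, 0.316 and 0 CPM, and next lowest in KO replicate 3. That likeness follows from the way they were picked, over the same 6 libraries, and is no separate finding.

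Myo1h is the nearest relative of Myo1c among the members. It (chromosome 5, plus strand, 114289166 to 114365357) was at 10.04, 23.2 and 16.6 CPM in the KO libraries, against 23.8, 5.24 and 35.7 CPM in the Het libraries. The Het libraries held both the lowest and the highest value. Its log2 fold change was -0.38 (SE 0.82, 95% interval -2.13 to 1.38), and it changed sign to 0.20 without Het replicate 3. Its annotated exons overlap those of Kctd10 on the opposite strand over 25.8% of their length. Kctd10 was at 67.4, 36.5 and 47.7 CPM in the KO libraries and at 35.6, 18.6 and 61.8 CPM in the Het libraries, so the level of Myo1h is uncertain to that extent.

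The spread between libraries grew as levels fell, also in other genes. Among the 4 members with a mean of 5 to 50 CPM, the range of log2 CPM over the 6 libraries ran from 1.77 for Myo5a to 6.25 for Myo1c, where the median of 5873 tested genes at such levels was 2.64. Among the 4 members with a mean of 50 to 500 CPM it ran from 0.51 for Myo3a to 2.16 for Myo10, beside a median of 1.17 over 4187 genes. Myo6 and Myo7a had ranges of 0.10 and 0.51 beside the median of 0.62 over 268 genes. Myo3a, Myo3b, Myo15, Myo5a, Myo6 and Myo7a lay below the median of their range of level, and Myo1c, Myo19, Myo1h and Myo10 above it.

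**Figure D3:**
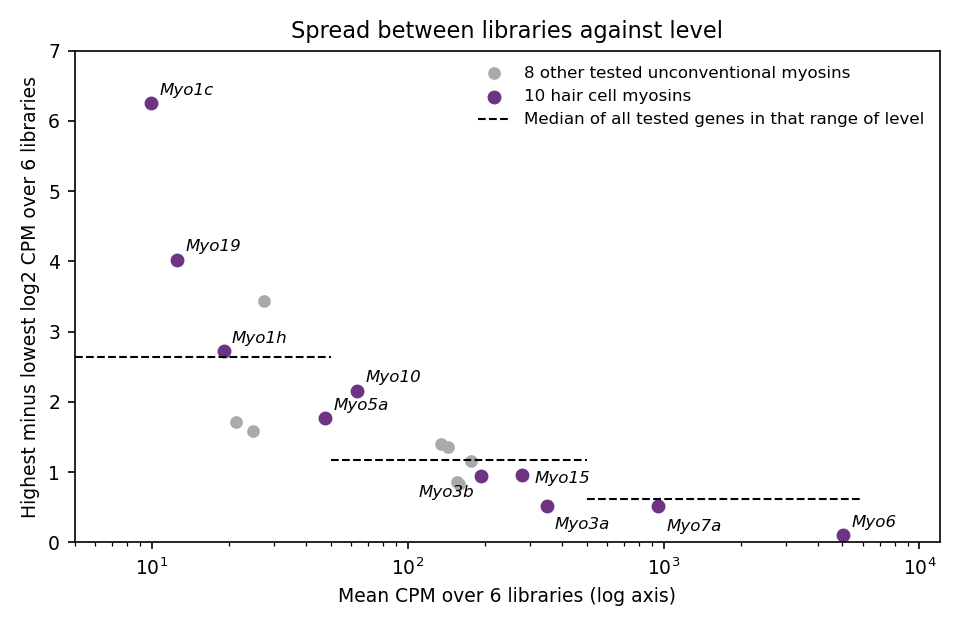
Highest minus lowest log2 CPM over the 6 libraries against mean CPM on a log axis, for the 10 members and the 8 other tested unconventional myosins, with dashed lines at the median of all tested genes with a mean of 5 to 50, 50 to 500 and at least 500 CPM. Myo6 at the lower right varied least (0.10) and Myo1c at the upper left most (6.25).

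The files held 14 further unconventional myosins, of which 8 were tested. Myo1a, Myo1f, Myo1g and Myo5c had 0 counts in all 6 libraries, which allows up to 0.0487 CPM for 3 counts over the 61600697 counts of the series. Of the 8 tested, 0 passed over all genes, and 0 were higher and 1 was lower at an unadjusted p under 0.05, beside 3.19% and 2.15% of tested genes. Their median log2 fold change was -0.19. The most abundant per kilobase were Myo1e at 18.3, Myo16 at 17.4, Myo9a at 12.5, Myo5b at 12.2 and Myo18a at 10.1 CPM per kilobase, all between Myo15 and Myo10 in median.

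Myo18a, a myosin with a PDZ domain that binds actin with little motor activity, was at 114, 117 and 130.4 CPM in the KO libraries, against 205, 195 and 192 CPM in the Het libraries. The genotypes did not overlap, and the means were 120.5 ± 8.67 CPM in KO and 197 ± 6.61 CPM in Het libraries (SD, n = 3). Myo18a had a log2 fold change of -0.71 (SE 0.27, 95% interval -1.28 to -0.14), with an unadjusted p of 0.0188 and an adjusted p of 0.92 by edgeR with Benjamini-Hochberg adjustment, so it did not pass. Leaving out each library in turn gave -0.76 to -0.68, with an unadjusted p of 0.0649 by edgeR without Het replicate 1. Myo1e, a class I myosin with an SH3 domain, was at 139.7 ± 73.3 CPM in KO and 131 ± 65.0 CPM in Het libraries, and Myo16, a myosin with ankyrin repeats known from brain, at 180.1 ± 45.5 CPM in KO and 132 ± 11.2 CPM in Het libraries. Neither passed.

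Conventional nonmuscle myosin II, which tightens the apical junctions of epithelia, was measured through 11 genes of its heavy chains, light chains and kinases. Of the 10 tested, 0 passed, 0 had an unadjusted p under 0.05, and 8 had a log2 fold change above 0, with a median of 0.24. Among all 11714 tested genes, 5957 lay above 0. The most abundant per kilobase were the light chains Myl6 (33.8), Myl12a (31.8) and Myl9 (30.6 CPM per kilobase); Myl12b matched 2 annotated genes and was left out of this order. Myl9 was at 43.3, 45.1 and 53.9 CPM in the KO libraries, against 25.8, 24.7 and 27.7 CPM in the Het libraries, without overlap. Its log2 fold change was 0.86 (SE 0.51, 95% interval -0.24 to 1.96) and did not pass (unadjusted p = 0.114, adjusted p = 0.938 by edgeR with Benjamini-Hochberg adjustment).

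Genes for cargo, scaffold and light chain partners of the members formed a list of 33, of which 28 were tested. Of these, 0 passed over all genes and 0 had an unadjusted p under 0.05, with 14 log2 fold changes above 0 and 14 below and a median of 0.01. Among all 11714 tested genes, 5957 lay above 0 and 5757 below. The genotypes did not overlap for 3 partners, Ush1c, Pdzd7 and Rab11a, each with all KO libraries below the Het ones, a separation found in 6.1% of all tested genes. Of the 8 tested genes listed with Myo7a, mostly proteins of the tip link and stereociliary link complexes, 1 had a log2 fold change above 0, and the median was -0.18. Of the 3 listed with Myo3a and Myo3b, Espn, Espnl and Morn4, all 3 lay above 0, with a median of 0.31. No member of these groups passed, so their directions are given as counts only.

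The most abundant of these partners per kilobase were Calm2 (804) and Calm3 (372 CPM per kilobase), which encode calmodulin, the light chain of many unconventional myosins, then Ptprq (278), the stereociliary phosphatase of the Myo6 complex, and Calml4 (92.2), a calmodulin-like light chain. Ptprq was at 2092, 2083 and 2588 CPM in the KO libraries, against 2050.4, 2402 and 1905 CPM in the Het libraries, which overlapped, and its log2 fold change was 0.09 (SE 0.16, 95% interval -0.25 to 0.43). Calml4 was at 407 ± 77.0 CPM in KO and 291 ± 54.2 CPM in Het libraries (SD, n = 3), with a log2 fold change of 0.49 (SE 0.24, 95% interval -0.03 to 1.01). Rab11a, a recycling endosome GTPase that binds Myo5a, was at 136, 135 and 119.7 CPM in the KO libraries, against 189.7, 159 and 180.1 CPM in the Het libraries, a log2 fold change of -0.44 (SE 0.27, 95% interval -1.02 to 0.15).

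The largest partner difference with a mean of at least 5 CPM was that of Rhot2, a Miro GTPase that holds Myo19 at mitochondria, with a log2 fold change of 0.86 (SE 0.58, 95% interval -0.39 to 2.11). It was at 33.1, 140.2 and 56.0 CPM in the KO libraries and at 53.7, 19.7 and 52.8 CPM in the Het libraries, which overlapped. KO replicate 2 stood far above the rest, and the log2 fold change was 0.09 without it and 0.52 without Het replicate 2. The other Miro gene, Rhot1, had a log2 fold change of 0.11 (95% interval -0.93 to 1.16). Exons of Rhot2 overlap the same-strand gene model Gm20683 over 29.4% of their length.

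**Figure D4:**
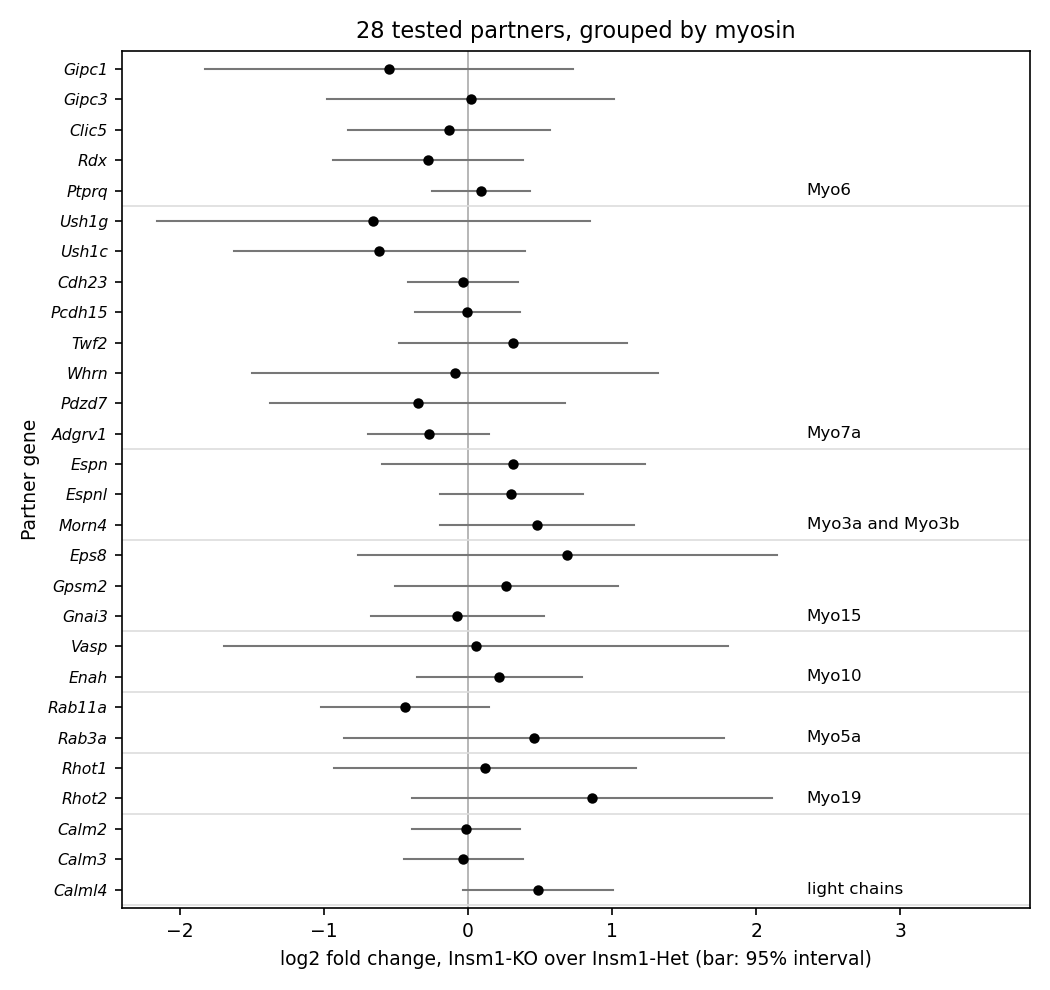
Log2 fold change, Insm1-KO over Insm1-Het, with its 95% interval for the 28 tested partner genes, grouped by the myosin they are listed with and by light chains. All 28 intervals include 0; Rhot2 lies farthest right (0.86) and Ush1g farthest left (-0.66).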

How the data were processed

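Per the labels' protocols, ribosomal RNA was removed, cDNA was primed with random hexamers and amplified, and 6 libraries were sequenced with 100-base paired reads. For each library the authors deposited 1 file of raw counts by gene symbol. The tools named per the submitters' processing notes are STAR, HTSeq and Trimmomatic, with GRCm38 as the build; their versions, the annotation and the strand setting are not given in the labels or files. The files held 23337 symbols and 0 repeated ones.

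Low genes were dropped with filterByExpr on the 2 genotypes (at least 10 counts, total of at least 15), which removed 0.274% of counts, and libraries were scaled by TMM. Genotype was tested across 11714 genes with edgeR 4.0.16 (quasi-likelihood, genotype as the only term, Benjamini-Hochberg, threshold 0.05), in R 4.3.3. The SE is the log2 fold change divided by the square root of F. Log2 CPM used a prior count of 2. Scripts were tested on simulated data. Alternatives were DESeq2 1.42.0, limma-voom (limma 3.58.1), 3 other scalings, 2 other filters, the newer quasi-likelihood form, a replicate block and leaving out each library. Exon lengths and positions come from GENCODE release M21 on GRCm38, with 22834 symbols matched to 1 gene, and start sites from the RefSeq table of GRCm38.p6.

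All 10 members are named, with the 5 most abundant other unconventional myosins, the 3 most abundant myosin II genes, the 4 most abundant partners and the partner with the largest difference, plus any gene of these 3 lists at an unadjusted p under 0.05. Abundance was ranked per kilobase. Some partner genes of the original list are not reported here and were left out of the partner counts. Genes outside this rule, marker genes included, are given with the count, sum or overlap they belong to. Members and lists were chosen with earlier results of these data known. Libraries of a genotype differed by more than sampling noise and were counted as separate samples.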

Additional observations from a re-analysis of the deposited data

How the results depend on the processing

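No member passed the adjusted threshold under any of the 15 alternatives, and the smallest adjusted p of a member was 0.625, for Myo19 in the newer form of edgeR's quasi-likelihood fit. Over all genes the count of 0 became 67 with no filter, 26 by DESeq2, and 1, Brip1, both in the newer form and with the replicate block; it was 0 in the 6 fits that left out 1 library, where 462 to 1012 genes had an unadjusted p under 0.05. With no filter 1 nonmuscle myosin II gene passed, Myl6b, which had 736 counts in Het replicate 3 and at most 4 in any other library. The other counts past the adjusted threshold, for members, other unconventional myosins, myosin II genes and partners, were 0 under every alternative, also with 1 library left out. At an unadjusted p under 0.05, Myo19 was called in 1 of the 15 alternatives, an edgeR fit with 1 library left out, and no other member in any. The replicate block, with 1 gene called, is no paired design: same-numbered libraries did not deviate together (r from 0.0073 to 0.0144). The signs of Myo6, Myo7a and Myo1h, none of them called, each changed in 1 alternative, to 0.00 for Myo6 and 0.20 for Myo1h without Het replicate 3 and to -0.09 for Myo7a without KO replicate 3. The members' share of counts was 0.697% in KO and 0.727% in Het libraries without Rn45s, and 0.696% in both against the TMM-scaled total, which was chosen after seeing the data. Coding length raised the levels per kilobase of 8 members by more than 1 SD over the 6 libraries. The lowest counts of any member in a library were those of Myo1c and Myo19, at 2 and 16. The 2 counts of Myo1c were in Het replicate 3, the library with the most counts.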
